A study of Mus musculus with 3 samples.

Results

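The 10 genes described here encode the 5 subunits of NF-kappaB (Nfkb1, Nfkb2, Rel, Rela and Relb) and 5 proteins that restrain or reshape its activity (Nfkbia, Nfkbid, Nfkbiz, Bcl3 and Tnfaip3). They were chosen by symbol from the 32285 genes of the count matrices, and all 10 were present once in each matrix. Peripheral blood mononuclear cells (PBMCs) of female C57BL/6 mice were profiled by droplet-based 3′ single-cell RNA sequencing in 3 libraries: young mice (8 weeks), aged mice (16 months) and aged mice given glycyrrhizic acid (GA), a compound of liquorice root, for 1 month by tail vein injection (aged-GA). The labels give no treatment for the young and aged groups, while the methods of the study mention an injection of phosphate-buffered saline for controls. By the same methods, mice of 8 weeks were bought from a supplier and mice of 16 months came from stocks reared in the laboratory. PBMCs came from 5 mice in each group, and how their cells were combined is not given in the sources used here. Each group was 1 library with no map from cells to mice, so no difference between groups could be tested against the spread between mice, and every interval below is a 95% interval that covers counting error only.

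NF-kappaB is a family of dimeric transcription factors that blood cells use to respond to microbes, cytokines and antigen. In resting cells the dimers are held in the cytoplasm by inhibitors of the IkappaB family, and signals from Toll-like, tumour necrosis factor and antigen receptors reach the IkappaB kinase, which marks the inhibitor for degradation and frees the dimers. Several genes of the family, among them the inhibitors, are switched on by NF-kappaB itself, so that the response limits its own length.

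Because several of these genes are known as targets of the family, their promoters were searched for its binding motif. Promoter sequences of RefSeq (build GRCm38.p6, 250 bases before to 50 after a start site, 300 in all) were found for 7 of the 10 genes, with none used for Nfkb1, Relb and Nfkbiz. The kappaB motif was searched on both strands, overlaps included. It was found in 8 of the 12 windows of these 7 genes and in 8.46% of all 32851 windows, and 6 of the genes had at least 1 window with a match, while the window of Rela had none. Some windows of Nfkb2 overlapped, and a match that they shared was counted in each. A match describes the letters only, and nothing was measured here on binding. The windows of the inhibitor Nfkbia (chr12:55492598-55492897, minus strand), the subunit Nfkb2 (chr19:46304487-46304786, plus strand) and the inhibitor Tnfaip3 (chr10:19015361-19015660, minus strand) are printed 5′ to 3′ because these genes recur in the comparisons below, with the bases of a match in capitals. The genes themselves lie on chromosome 12 from 55489410 to 55492647, on chromosome 19 from 46304320 to 46312385 and on chromosome 10 from 19000910 to 19015657 of GRCm38. Each window spans an annotated start of transcription, which for Nfkb2 and Tnfaip3 lies inside the gene and not at its outer end.

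Nfkbia: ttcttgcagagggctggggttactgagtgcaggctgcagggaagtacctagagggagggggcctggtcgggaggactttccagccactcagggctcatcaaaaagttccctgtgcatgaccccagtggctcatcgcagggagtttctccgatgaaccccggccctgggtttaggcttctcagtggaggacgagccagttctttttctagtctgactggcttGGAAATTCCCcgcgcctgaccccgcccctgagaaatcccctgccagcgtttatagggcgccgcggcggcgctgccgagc
Nfkb2: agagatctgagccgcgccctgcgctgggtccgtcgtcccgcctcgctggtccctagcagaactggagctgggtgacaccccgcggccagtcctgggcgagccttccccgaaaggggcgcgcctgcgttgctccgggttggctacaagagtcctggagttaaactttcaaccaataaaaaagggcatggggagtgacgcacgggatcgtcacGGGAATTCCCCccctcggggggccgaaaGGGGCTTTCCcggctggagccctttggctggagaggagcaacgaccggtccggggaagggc
Tnfaip3: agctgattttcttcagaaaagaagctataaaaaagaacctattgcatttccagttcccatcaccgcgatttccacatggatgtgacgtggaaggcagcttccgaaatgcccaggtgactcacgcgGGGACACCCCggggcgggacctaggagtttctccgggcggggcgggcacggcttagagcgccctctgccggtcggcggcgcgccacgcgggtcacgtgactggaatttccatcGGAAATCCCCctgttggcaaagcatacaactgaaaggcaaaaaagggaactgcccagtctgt

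The match of Nfkbia began at position -29 relative to the start site, on the strand opposite to that printed. Nfkb2 held matches that began at positions -39, -38 and -11, the first of them on both strands and the next overlapping it. Tnfaip3 held matches that began at positions -125 and -12.

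After filtering, 8851 young, 10238 aged and 12648 aged-GA cells remained, with 64335, 75684 and 104581 UMIs of the 10 genes. Cells were placed in a class when at least 2 of its marker genes had a UMI and fewer than 2 of every other class did. T cells were the exception, since they were allowed markers of NK cells. This gave 2301, 4361 and 5672 B cells, 5381, 2234 and 3477 T cells, 321, 267 and 258 NK cells, 54, 742 and 232 monocytes and 12, 819 and 520 neutrophils in young, aged and aged-GA mice. All markers of the own class were detected in B cells, T cells, NK cells, monocytes and neutrophils of every library. Other barcodes with at least 2 markers in more than 1 class were 4.59% of the young, 14.3% of the aged and 11.8% of the aged-GA cells and were left out. Cells with 1 marker of another class were kept. Of the monocytes, 33 young, 223 aged and 69 aged-GA cells had no marker of another class. Between 50 and 62 barcodes were shared by each pair of libraries. Levels are in CPM, which divides the UMIs of a gene by those of every gene except haemoglobin in the same cells and scales the result to 1000000, and with a 3′ tag they compare the same gene between cells but not 1 gene with another. Free RNA was read from barcodes of red cells (over 50% haemoglobin UMIs, under 200 genes), and in these the 10 genes ranged from 0 to 60.9 CPM in the young, 12.2 to 204 in the aged and 6.38 to 232 in the aged-GA library. The interval of a gene lay above that of red cell barcodes for 8 to 10 of the 10 genes in B cells, 6 to 8 in T cells, 4 to 8 in NK cells, 7 or 8 in monocytes and 6 or 7 in neutrophils, and Nfkbia was above them in all 5 classes of all 3 libraries.

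Among B cells, T cells, NK cells, monocytes and neutrophils, Nfkbia and the nuclear IkappaB genes Nfkbiz and Nfkbid were highest in neutrophils of every library. Basophils, which are described below, were left out of this order and of those of the other genes. Nfkbia, which encodes the cytoplasmic inhibitor IkappaBalpha, was next highest in monocytes in each of the 3 libraries, and no neighbouring classes in this order had overlapping intervals. Nfkbiz, whose nuclear product IkappaBzeta is needed for a part of the NF-kappaB response of myeloid cells, had the same 2 classes at the top, with 1604, 384 and 481 CPM in young, aged and aged-GA neutrophils and 650.4, 163 and 197 CPM in monocytes, against 34.4, 34.5 and 35.3 CPM in B cells. Nfkbid, for the nuclear protein IkappaBNS, stood at 162, 235 and 311 CPM in neutrophils, against 13.3, 23.9 and 22.4 CPM in T cells. In young mice the Nfkbid interval of neutrophils overlapped that of monocytes.

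Tnfaip3 encodes A20, a ubiquitin-editing enzyme that shuts off the signal upstream of the IkappaB kinase, and its order was not the same in every library. It stood at 409, 666 and 627 CPM in young, aged and aged-GA T cells and 482, 642 and 649.6 CPM in NK cells, and B cells held 92.3, 90.5 and 95.6 CPM. Neutrophils had the highest level in young mice (577 CPM, 394 to 814, from 12 cells) and the lowest in aged mice (75.8, 64.7 to 88.2). In the aged library the levels of monocytes (89.4) and neutrophils lay below that of red cell barcodes (124, 105 to 146). By CPM, Tnfaip3 of aged monocytes and neutrophils was therefore not set apart from free RNA. CPM compares shares of the UMIs other than haemoglobin, and amounts per barcode were not compared. For Tnfaip3 and Nfkbiz of B cells in both the aged and the aged-GA library, neither CPM interval lay above that of red cell barcodes.

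Among the subunits, Rel was highest in B cells or monocytes of every library. The gene encodes c-Rel, a transactivating subunit known for its part in lymphocyte activation. It stood at 308 CPM (296 to 319.5) in the young, 336 (327 to 345) in the aged and 339 (332 to 347) in the aged-GA library in B cells, against 61.2, 92.3 and 85.4 CPM in T cells and 72.1, 68.1 and 75.1 CPM in NK cells. B cells were also the class with the highest Relb in each library, at 63.6, 54.6 and 62.4 CPM, although in young mice the interval of neutrophils, with 3 UMIs, spanned it. Relb pairs with the product of Nfkb2 in the alternative pathway downstream of CD40 and the BAFF receptor. Nfkb2, whose precursor protein is cut to its active form in that pathway, was highest in B cells of aged (80.2 CPM) and aged-GA mice (73.9), and in aged-GA mice the interval of monocytes overlapped that of B cells.

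Nfkb1, for the precursor of a subunit that lacks a transactivating domain of its own, was highest in monocytes of every library, at 234, 203 and 272 CPM in young, aged and aged-GA mice. In aged mice the interval of monocytes overlapped that of NK cells. Rela, for the main transactivating subunit of the classical pathway, varied least between classes, from 18.0 to 39.7 CPM in the young, 45.4 to 55.1 in the aged and 46.8 to 70.0 in the aged-GA library, and the intervals of neighbouring classes overlapped throughout the order. Bcl3, a nuclear member of the IkappaB family that binds dimers of the Nfkb1 and Nfkb2 products, ranged from 13.9 CPM in T cells to 47.7 in neutrophils of aged mice.

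**Figure D1:**
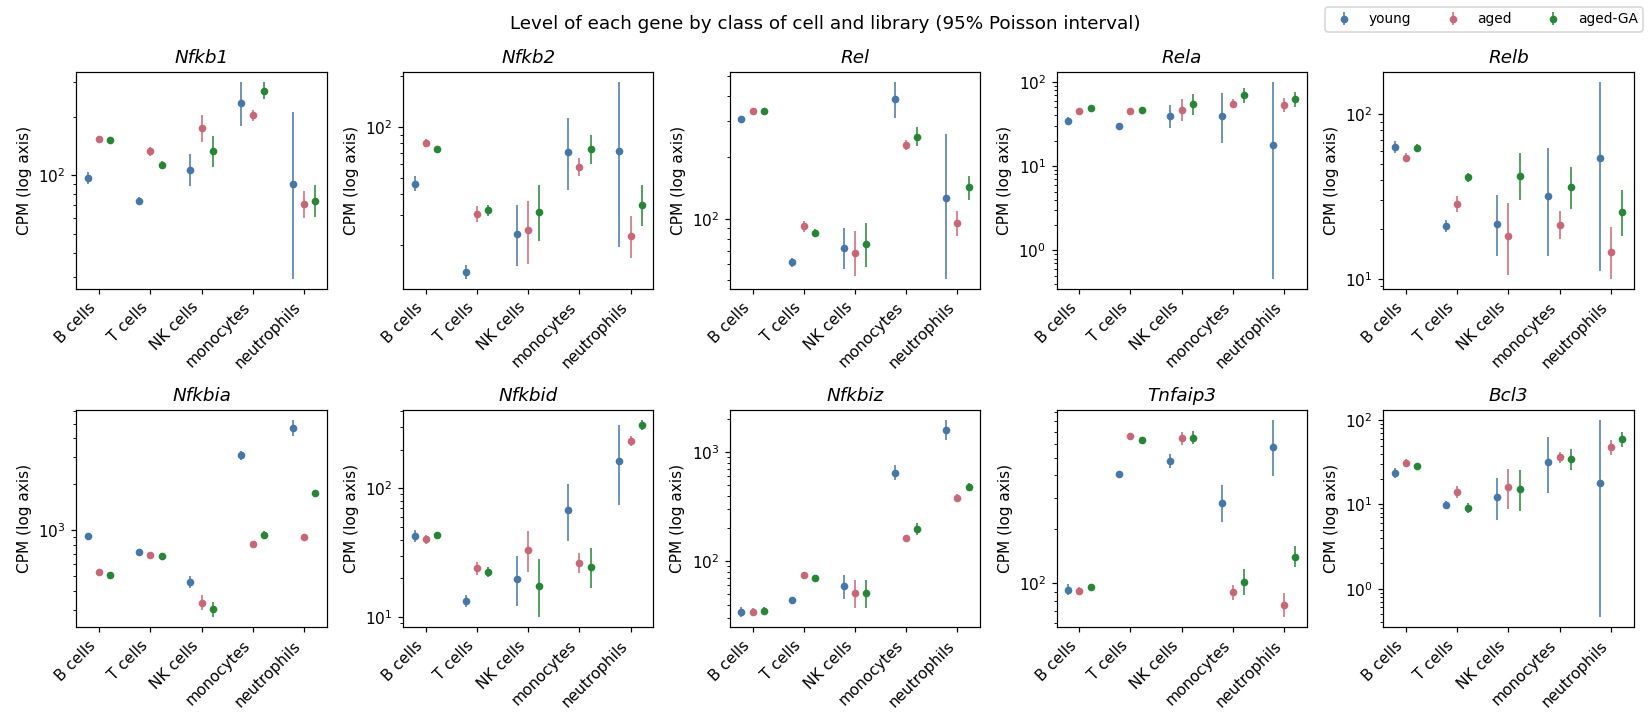
Level of each of the 10 genes (CPM, log axis) in 5 classes of cells of young, aged and aged-GA mice. Points are sums over all cells of a class in 1 library and bars are 95% Poisson intervals. Nfkbia, Nfkbiz and Tnfaip3 of young monocytes and neutrophils lie above those of both aged libraries, and the bars of young neutrophils are long because they rest on 12 cells.

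The comparison of aged with young mice asks how the family differs with age, from which the source of the mice cannot be told apart. In monocytes, 5 of the 10 genes were lower in aged mice by more than 1.5-fold and none was higher, where 31.5% of 5469 genes with at least 100 UMIs differed by that much, 20.1% higher and 11.4% lower. The median log2 ratio, aged over young, computed with a pseudocount of 1 CPM, was -0.65 for the 10 genes and 0.06 for all genes. The 5 were Nfkbia, Nfkbiz, Nfkbid, Tnfaip3 and Rel, that is 4 inhibitors or nuclear IkappaB genes and 1 subunit.

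Nfkbia stood at 3086 CPM (2873 to 3310.2) in the young, 810.2 (785 to 836) in the aged and 928 (877 to 980.4) in the aged-GA library in monocytes. The young interval lay far above both others, and the young level was 3.81 times the aged level, a log2 ratio of -1.93 (-2.04 to -1.82). Nfkbiz stood at 650.4 CPM (555 to 758) in the young, 163 (152 to 175) in the aged and 197 (175 to 223) in the aged-GA library, a log2 ratio of -1.99 (-2.24 to -1.74), with the same gap between the young library and the other two. Tnfaip3 stood at 282 CPM (219.9 to 355) in the young, 89.4 (81.1 to 98.4) in the aged and 102 (86.1 to 121) in the aged-GA library, a log2 ratio of -1.64 (-2.02 to -1.27). Nfkbiz and Tnfaip3 thus shared the pattern of Nfkbia, with the young library alone high. Nfkbid rested on 17 young UMIs and had a ratio of -1.33 (-2.10 to -0.54). Like Tnfaip3, it did not lie above red cell barcodes in aged or aged-GA monocytes, so its CPM does not set it apart from free RNA there. Rel, at 385 CPM (312 to 469) in the young, 229.9 (216 to 244) in the aged and 253 (227 to 281) in the aged-GA library, had -0.74 (-1.04 to -0.43). Of the other subunits, Nfkb1 had -0.21 (-0.59 to 0.20), Nfkb2 -0.29 (-0.99 to 0.48), Rela 0.46 (-0.43 to 1.55) and Relb -0.55 (-1.61 to 0.68), and all 4 intervals included 0.

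Monocytes were not the same mixture in each library, since 50 of the 54 young monocytes carried markers of nonclassical monocytes, the patrolling type, against 439 of 742 aged and 168 of 232 aged-GA monocytes. Within nonclassical monocytes Nfkbia stood at 3042 CPM (2820.2 to 3276) in the young, 1031 (987 to 1077) in the aged and 1065 (996 to 1138) in the aged-GA library. The log2 ratio, aged over young, was -1.56 (-1.69 to -1.43) for Nfkbia, -1.13 (-1.39 to -0.87) for Nfkbiz and -1.23 (-1.64 to -0.81) for Tnfaip3. These 3 of 7 genes with enough UMIs stayed lower by 1.5-fold, where 5.59% of 3399 genes were, and each ratio was smaller in size than over all monocytes. Rel, at 383, 327 and 313 CPM in young, aged and aged-GA mice, did not, with -0.23 (-0.55 to 0.11), and Nfkbid had under 100 UMIs there. Rela passed the fold upward with 0.82 (-0.13 to 1.99), an interval that included 0, where 15.5% of all genes passed it upward. In aged mice classical monocytes held less of each of these genes than nonclassical monocytes, for example 54.7 against 300.1 CPM of Nfkbiz and 149 against 327 of Rel.

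Only 12 neutrophils were found in the young library, so its values rest on few UMIs. Haemoglobin took 0.104% of the young, 14.6% of the aged and 12.1% of the aged-GA neutrophil UMIs. In cells with no more than 1% haemoglobin the log2 ratios, aged over young, were -2.70 for Nfkbia, -2.45 for Nfkbiz and, from under 100 UMIs, -3.47 for Tnfaip3, each as large as in all neutrophils. Of 8 genes with enough UMIs, 3 were lower and 2 higher in aged neutrophils by more than 1.5-fold, in a class where 53.6% of 2377 genes passed that fold, 41.6% higher and 12% lower. Nfkbia stood at 4668 CPM (4117 to 5272) in the young, 901 (861 to 941) in the aged and 1756 (1690.2 to 1824) in the aged-GA library, a log2 ratio, aged over young, of -2.37 (-2.56 to -2.18). Nfkbiz stood at 1604 CPM (1288 to 1974) in the young, 384 (358 to 410.3) in the aged and 481 (447 to 517) in the aged-GA library, with -2.06 (-2.38 to -1.73). Tnfaip3 stood at 577 CPM (394 to 814) in the young, 75.8 (64.7 to 88.2) in the aged and 141 (123 to 161) in the aged-GA library, with -2.91 (-3.48 to -2.33). For all 3 genes the young interval lay above both others, and for Nfkbia and Tnfaip3 the aged-GA interval also lay above the aged one. Rela and Bcl3, each with 1 UMI in young neutrophils, had ratios of 1.51 (-0.95 to 6.87) and 1.35 (-1.11 to 6.72), whose intervals included 0. Nfkbid, the nuclear IkappaB gene that was low in aged monocytes, stood at 162 CPM in the young, 235 in the aged and 311 in the aged-GA library in neutrophils, with 0.53 (-0.40 to 1.67). In neutrophils with no more than 1% haemoglobin its ratio was -0.12.

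Other genes were read beside these. In monocytes, 6 of 7 genes known to respond to glucocorticoids were lower in aged than in young mice by more than 1.5-fold. Of all genes in monocytes, 11.4% were. Within nonclassical monocytes it was 3 of the 7, where 5.59% of all genes were lower. The 7 genes had a summed level of 2122, 959.8 and 1274 CPM in all monocytes of young, aged and aged-GA mice. The immediate early genes, which rise within minutes of handling or stimulation, summed to 8487, 6702 and 7798 CPM in monocytes, and to 9859, 17576 and 22064 CPM in neutrophils. From young to aged neutrophils this sum was higher while Nfkbia was lower, and from aged to aged-GA neutrophils both were higher. Neutrophil markers summed to 67.4, 145 and 113 CPM in monocytes, with 6 of 7 at 0 in young and none at 0 in both others. The part of these genes in the results above was not tested. Barcodes with at least 2 markers of both monocytes and neutrophils, which were left out, numbered 2, 658 and 183.

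In T cells most members lay higher in aged mice. Of the 10 genes, 7 were higher in aged than in young mice by more than 1.5-fold and none was lower, where 32.3% of 9423 genes passed that fold, 29.6% higher and 2.66% lower. The median log2 ratio was 0.65 for the 10 genes and 0.36 for all genes. Ratios relative to that median left 1 gene past 1.5-fold, Nfkb2, and 3 were past it when ribosomal protein, mitochondrial and haemoglobin genes were taken out of the total. Ribosomal protein genes took 40.1% of the T cell UMIs in the young, 31.4% in the aged and 33.3% in the aged-GA library, and their part in the ratios was tested only by that change of the total.

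Nfkb2 had the largest ratio of the 10 in T cells. It stood at 14.0 CPM (12.6 to 15.4) in the young, 30.7 (27.5 to 34.2) in the aged and 32.1 (29.7 to 34.7) in the aged-GA library, and the young interval lay below both others, with a log2 ratio of 1.08 (0.92 to 1.35). Nfkb1 stood at 73.8 CPM (70.7 to 77.0) in the young, 132 (126 to 139) in the aged and 113 (109 to 118) in the aged-GA library, a ratio of 0.83 (0.74 to 0.94), and the 3 intervals did not overlap. Tnfaip3, at 409 CPM (402 to 417) in the young, 666 (651 to 681) in the aged and 627 (617 to 638) in the aged-GA library, had 0.70 (0.66 to 0.74), with both aged libraries above the young one. Of the nuclear IkappaB genes, Nfkbid had 0.80 (0.61 to 1.07) and Nfkbiz 0.74 (0.62 to 0.88), while Bcl3 had 0.46 (0.21 to 0.79) and stayed under the fold. The transactivating subunits Rel and Rela lay at the edge of the fold, with 0.59 (0.48 to 0.71) and 0.60 (0.45 to 0.77), and Relb just inside it, with 0.43 (0.25 to 0.65). Nfkbia did not share the shift. It stood at 714 CPM (705 to 724) in the young, 682 (667 to 698) in the aged and 678 (666 to 689) in the aged-GA library, a ratio of -0.07 (-0.11 to -0.03), below the median of all genes. For Nfkb2, Nfkb1 and Tnfaip3, free RNA had the direction of the T cells from young to aged mice. From aged to aged-GA mice free RNA of these genes had the opposite direction. Nfkbia of red cell barcodes was higher in aged (204 CPM) than in young mice (60.9), unlike in T cells. Relb was higher in aged-GA than in aged mice in both. Red cell barcodes of young, aged and aged-GA mice held 2.65, 18.2 and 6.38 CPM of Nfkb2, 2.65, 74.7 and 84.0 CPM of Nfkb1 and 29.1, 124 and 184 CPM of Tnfaip3. The part of free RNA in these ratios was not tested. The T cell intervals of Nfkb2, Nfkbid and Bcl3 did not clear those of red cell barcodes in aged mice, while those of the other 7 genes did.

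Naive cells were 4615 of 5381 young but 945 of 2234 aged T cells, so the genes were also read within subsets. Of the 10 genes, 8 were higher in CD4 T cells, where 29.3% of all genes were, and 4 in CD8 T cells, where 25.8% were. In naive CD4 T cells (922 young and 244 aged cells), Nfkbiz stood at 39.3 CPM in the young, 104 in the aged and 75.2 in the aged-GA library, a log2 ratio, aged over young, of 1.39 (1.06 to 1.75). Nfkb1 (0.89, 0.61 to 1.19), Relb (0.97, 0.37 to 1.64) and Rela (0.66, 0.17 to 1.16) also passed the fold there, so 4 of 7 genes with enough UMIs were higher, where 17.6% of 4914 genes were. In naive CD8 T cells 2 of 10 genes were higher, Nfkb1 and Nfkbiz, where 17.2% of all genes were. In memory CD8 T cells 4 of 6 were higher, Nfkb1, Rel, Rela and Tnfaip3, where 26.1% of all genes were. Nfkb1 was thus past 1.5-fold in each of these 3 subsets, with 53.9, 131 and 109 CPM in young, aged and aged-GA memory CD8 T cells.

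Regulatory T cells, which depend on Rel for their development, stood apart from other T cells in Nfkbia. It stood at 1241 CPM (1182 to 1303) in the young, 1075 (1016 to 1137) in the aged and 993 (947 to 1041) in the aged-GA library, above naive and memory CD4 T cells of the same library, whose levels ran from 728 to 824 CPM. Tnfaip3 of regulatory T cells stood at 584 CPM in the young, 885 in the aged and 904 in the aged-GA library, a ratio of 0.60 (0.46 to 0.74), and was the 1 gene of 6 past the fold, where 24.7% of all genes were higher. Nfkbia of memory CD8 T cells was the lowest of the T cell subsets in every library, at 379, 414 and 498 CPM in young, aged and aged-GA mice, and the interval of no other T cell subset reached it.

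**Figure D2:**
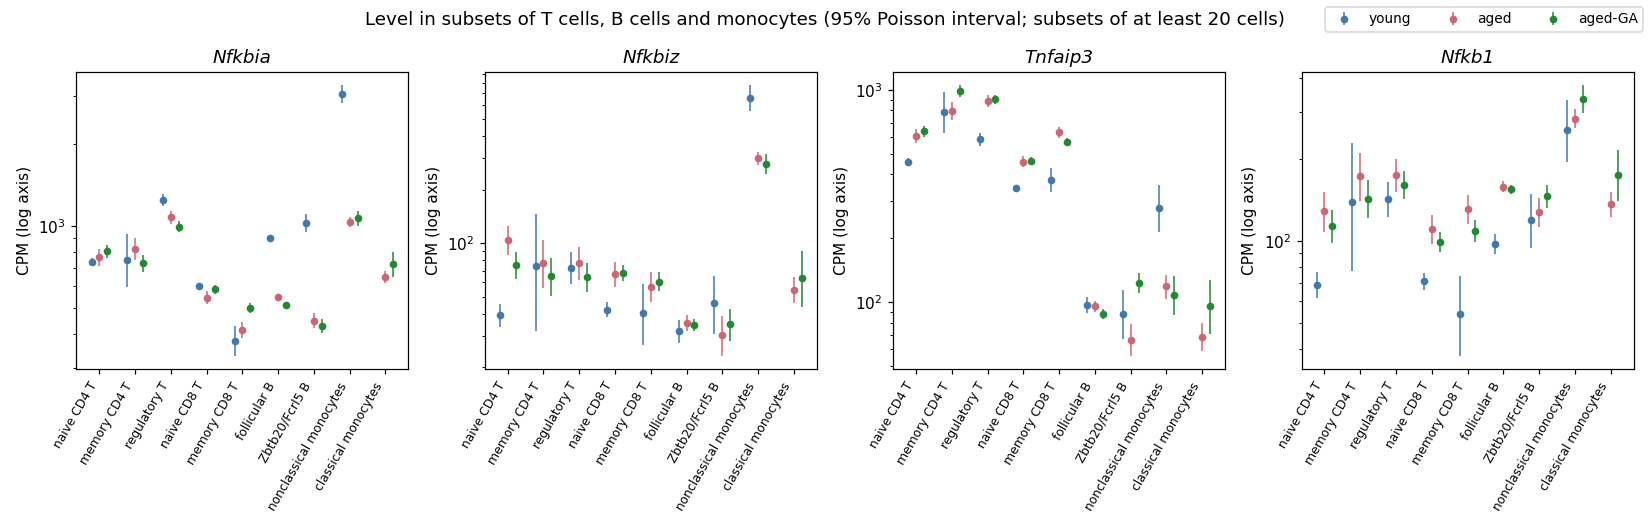
Levels (CPM, log axis) of Nfkbia, Nfkbiz, Tnfaip3 and Nfkb1 in subsets of T cells, B cells and monocytes of young, aged and aged-GA mice, for subsets of at least 20 cells. Points are sums over cells of 1 library and bars are 95% Poisson intervals. Nfkbia is higher in regulatory T cells than in the other T cell subsets of the same library, and in young nonclassical monocytes it lies above both aged libraries.

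In B cells Nfkbia was the 1 member lower in aged mice by more than 1.5-fold, the direction it had in monocytes. It stood at 910.3 CPM (890.5 to 931) in the young, 532 (521 to 544) in the aged and 505 (496 to 514) in the aged-GA library, so that young B cells had 1.71 times the level of aged B cells, a log2 ratio, aged over young, of -0.77 (-0.82 to -0.73). In all, 3 of 10 genes passed 1.5-fold in B cells, where 24.9% of 8921 genes did, 22.5% higher and 2.39% lower. The other 2 were subunits and were higher. Nfkb2 stood at 46.3 CPM (41.9 to 51.0) in the young, 80.2 (75.8 to 84.8) in the aged and 73.9 (70.5 to 77.4) in the aged-GA library, a ratio of 0.78 (0.63 to 0.96). Nfkb1 stood at 96.8 CPM (90.4 to 104) in the young, 153 (147 to 159) in the aged and 151 (147 to 156) in the aged-GA library, a ratio of 0.66 (0.55 to 0.78), and for both genes the young interval lay below the other two. Relative to the median of all genes, 0.28, Nfkbia alone stayed past the fold. Rel, at the high level given above, had 0.13 (0.06 to 0.19), Tnfaip3 -0.03 (-0.16 to 0.10), Nfkbiz 0.01 (-0.20 to 0.21) and Nfkbid -0.08 (-0.27 to 0.10).

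Nfkbia was lower in aged mice in both subsets of B cells that were read. In follicular B cells, the recirculating majority, it stood at 902 CPM in the young, 546 in the aged and 511 in the aged-GA library, and the log2 ratio, aged over young, was -0.72 (-0.78 to -0.67), where 2.4% of all genes were lower by 1.5-fold. In B cells with Zbtb20 and Fcrl5 it stood at 1024 CPM in the young, 449 in the aged and 429 in the aged-GA library, with -1.19 (-1.33 to -1.04), where 4 of 8 genes with enough UMIs passed the fold against 23.9% of all genes. Relb (-0.69) and Nfkbid (-0.68) were lower as well and Nfkb2 (1.17) higher. In the same direction as Nfkbia, 7 of 13 immediate early genes were lower in aged B cells by more than 1.5-fold and none higher. Of all genes in B cells, 2.39% were lower by that fold. The 13 genes had a sum of 8018, 4557 and 5709.5 CPM in young, aged and aged-GA mice. The glucocorticoid-responsive genes summed to 2105, 969.7 and 1108 CPM, of which Tsc22d3 alone held 1792 CPM in young and 736 in aged mice. Of 6 tested in B cells, 3 were lower in aged mice by more than 1.5-fold and 1, Per1 (0.63), was higher. In T cells it was also 3 of 6 lower and 1 higher, where 2.66% of all genes were lower and 29.6% higher. Nfkbia of T cells had -0.07. Plasma cell markers in B cells summed to 141, 3118 and 2390.0 CPM. The part of these genes in the level of Nfkbia was not tested.

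NK cells were few, and 5 of the 10 genes had enough UMIs to compare. Nfkb1, at 107 CPM (88.0 to 128) in the young, 174 (149 to 203) in the aged and 133 (110.2 to 159) in the aged-GA library, was the only 1 of the 5 past 1.5-fold, with 0.70 (0.36 to 1.07), where 14.4% of 2991 genes differed, 9.73% higher and 4.68% lower. Nfkbia, at 457 CPM (417 to 499) in the young, 335 (299 to 374) in the aged and 302 (268 to 340.2) in the aged-GA library, had -0.45 (-0.66 to -0.24), in the direction of B cells and under the fold. Tnfaip3 had 0.41 (0.24 to 0.59), in the direction of T cells and under it too.

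**Figure D3:**
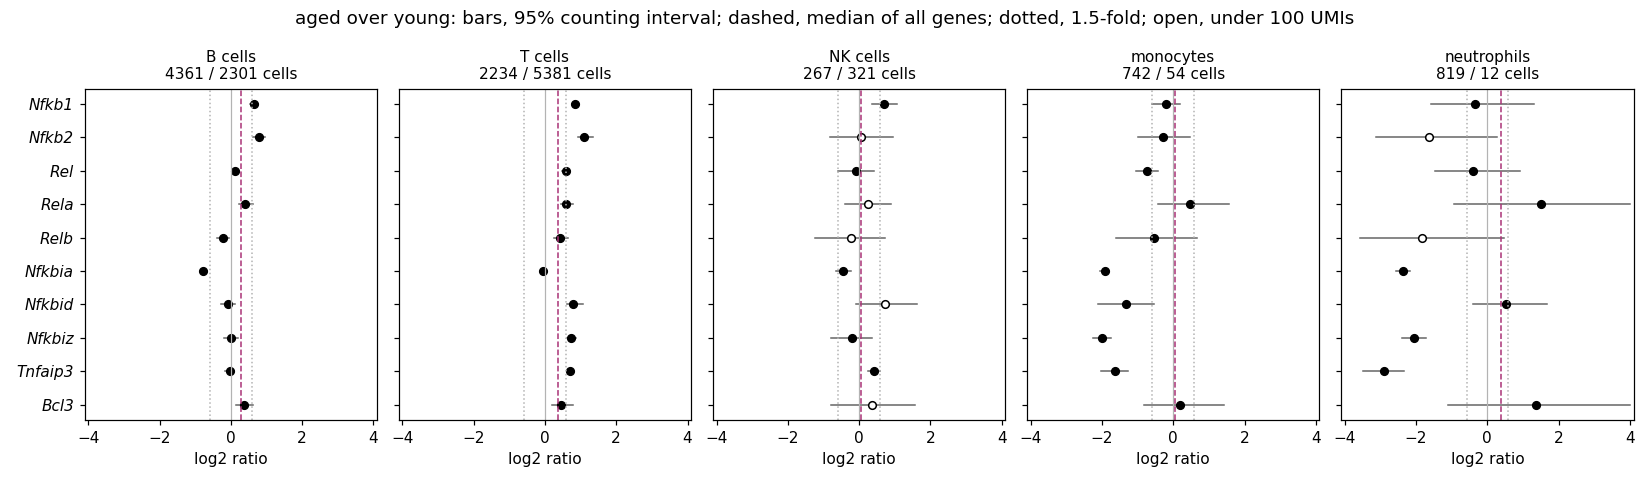
Log2 ratio, aged over young, of the 10 genes in 5 classes of cells, with the numbers of aged and young cells above each panel. Bars are 95% intervals of the ratio of 2 counts, drawn up to 4 on either side, open points have fewer than 100 UMIs over both libraries, dashed lines mark the median of all genes and dotted lines 1.5-fold. Points of T cells lie right of 0 except Nfkbia, and those of Nfkbia, Nfkbiz and Tnfaip3 lie left of 0 in monocytes and neutrophils.

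The comparison of aged-GA with aged mice asks how the family differs with the treatment, and it shares the aged library with the comparison above, so what sets that library apart enters both with opposite sign. In B, T and NK cells no member passed 1.5-fold. In B cells it was 0 of 10 genes, where 1.84% of 9705 genes passed the fold, and the ratios ran from -0.12 (Nfkb2) to 0.19 (Relb). In T cells it was 0 of 10, where 2.93% of 9378 genes did, and in NK cells 0 of 4, where 3.97% of 2949 did. The widest ratios in T cells were those of Relb and Bcl3. Relb stood at 20.9 CPM (19.3 to 22.7) in the young, 28.6 (25.5 to 32.0) in the aged and 41.3 (38.6 to 44.2) in the aged-GA library, so that the 3 intervals did not overlap, with a log2 ratio, aged-GA over aged, of 0.52 (0.34 to 0.72). Bcl3 stood at 9.83 CPM (8.72 to 11.0) in the young, 13.9 (11.8 to 16.3) in the aged and 9.12 (7.87 to 10.5) in the aged-GA library, with -0.56 (-0.93 to -0.29), and the aged-GA level lay close to the young one.

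Relb was the 1 gene of 10 past the fold in monocytes, where 7.41% of 6057 genes were. It stood at 31.7 CPM (13.7 to 62.5) in the young, 21.3 (17.4 to 26.0) in the aged and 36.1 (26.7 to 47.7) in the aged-GA library there, from 8, 100 and 49 UMIs, with 0.73 (0.23 to 1.27). Within nonclassical monocytes the levels were 34.9, 25.1 and 32.4 CPM and the ratio was 0.35 (-0.37 to 1.07), under the fold. In subsets of T cells, Relb was the 1 of 8 genes past the fold in regulatory T cells (0.62, 0.04 to 1.26), where 6.37% of all genes were, and the 1 of 9 in memory T cells (0.64, 0.33 to 1.01), where 4.43% were. In B cells with Zbtb20 and Fcrl5, 1 of 10 genes passed it, Tnfaip3 (0.87, 0.60 to 1.18), where 4.5% did. Tnfaip3 of these cells lay below red cell barcodes in CPM in both libraries, and the part of free RNA in the difference was not tested. Red cell barcodes held 2.65, 12.2 and 28.7 CPM of Relb in young, aged and aged-GA mice, and the part of free RNA in these ratios of Relb was not tested. Nfkb1 of monocytes had 0.42 (0.25 to 0.60). Nfkbia, Nfkbiz and Tnfaip3, which were low in aged monocytes, differed little between the 2 aged libraries, with 0.20 (0.10 to 0.29), 0.27 (0.07 to 0.48) and 0.19 (-0.09 to 0.48).

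Neutrophils held 3 of the 4 members past 1.5-fold with GA in the 5 classes. All 9 genes with enough UMIs had a ratio above 0, and these 3 were higher in aged-GA than in aged mice by more than 1.5-fold, where 5.55% of 3406 genes passed that fold and 4.35% were higher. The median log2 ratio was 0.40 for the 9 genes and 0.09 for all genes. Nfkbia, with levels given above, had 0.96 (0.88 to 1.05), which is 1.95-fold. Tnfaip3 had 0.89 (0.60 to 1.20). Its aged-GA level of 141 CPM was below that of aged-GA red cell barcodes (184), and the part of free RNA in this difference was not tested. Nfkb2, at 72.1 CPM (19.6 to 185) in the young, 22.7 (16.8 to 29.9) in the aged and 34.6 (26.0 to 45.3) in the aged-GA library from 4, 50 and 53 UMIs, had 0.59 (0.03 to 1.20) and lay at the edge of the fold, with Rel just inside it at 0.58 (0.30 to 0.86).

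The immediate early genes of neutrophils went from 17576 CPM (aged) to 22064 CPM (aged-GA) in sum, and platelet markers from 141 to 402 CPM. Their part in the higher Nfkbia was not tested. Basophils, of which the young library held none, had high levels of Nfkbiz and Tnfaip3. Nfkbiz stood at 557 CPM (446 to 688) in 66 aged and 802 (568 to 1101) in 18 aged-GA basophils, above the intervals of neutrophils of the same library. Tnfaip3 stood at 881 (739 to 1043) and 823 CPM (585 to 1125), and in aged mice this lay above all 5 larger classes.

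**Figure D4:**
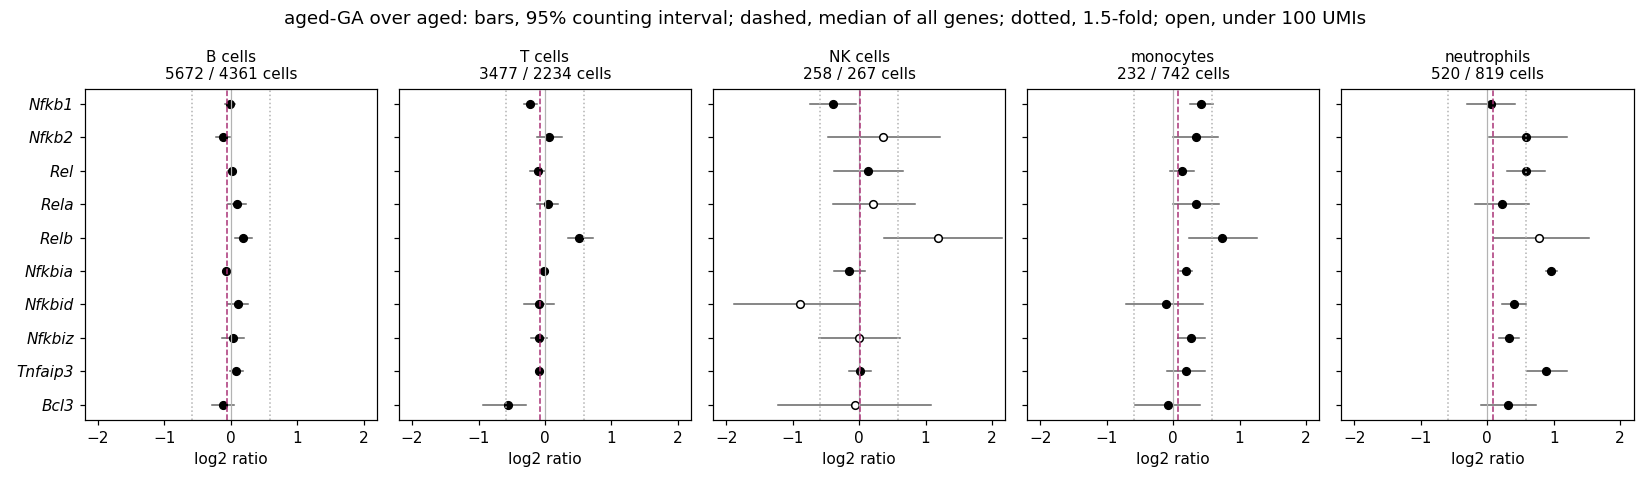
Log2 ratio, aged-GA over aged, of the 10 genes in 5 classes of cells, drawn as for aged over young on a narrower axis. Points of B, T and NK cells with at least 100 UMIs lie within the dotted lines of 1.5-fold, and in neutrophils Nfkbia, Tnfaip3 and Nfkb2 lie right of them.

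The share of cells with a UMI was read after each cell was thinned to 1000 UMIs. At this depth the share follows the level of a gene, and a cell with no UMI may still hold the transcript, so it does not tell whether more cells hold a gene or each holds more. Cells under that depth, between 0 and 29 in a class and library, were left out. The 1000 UMIs included haemoglobin, which CPM leaves out. Haemoglobin took 4.89%, 12.1% and 9.88% of the UMIs of young, aged and aged-GA B cells. In neutrophils it took 0.104%, 14.6% and 12.1%, and its part in the shares was not tested. Nfkbia was found in 53.0% (50.9 to 55.0) of the young, 38.2% (36.7 to 39.7) of the aged and 36.1% (34.8 to 37.4) of the aged-GA B cells, with exact binomial intervals, and the young interval lay above both others. Without thinning the shares were 87.3%, 75.9% and 78.5%. In monocytes it was found in 79.2% (65.9 to 89.2), 47.1% (43.4 to 50.8) and 56.1% (49.4 to 62.6), and in neutrophils in 91.7% (61.5 to 99.8), 47.5% (43.9 to 51.0) and 59.3% (54.9 to 63.7). The aged-GA and aged intervals of neutrophils did not overlap. T cells had 41.4%, 39.8% and 41.0%, with overlapping intervals.

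Tnfaip3 was found in 33.1% (31.8 to 34.4) of the young, 46.5% (44.4 to 48.6) of the aged and 45.1% (43.4 to 46.7) of the aged-GA T cells, with the young interval below both others. In neutrophils it was found in 7.72% of aged and 9.42% of aged-GA cells, with overlapping intervals. Nfkbiz of monocytes was found in 37.7% (24.8 to 52.1), 16.7% (14.1 to 19.6) and 19.6% (14.6 to 25.3) of young, aged and aged-GA cells. Without thinning, Tnfaip3 was in 79.8%, 89.9% and 91.3% of T cells and Nfkbiz in 64.8%, 51.8% and 56.9% of monocytes. Red cell barcodes, thinned to the same depth but mostly filled with haemoglobin, held Nfkbia in 0.326%, 1.04% and 1.13% and Tnfaip3 in 0.109%, 0.586% and 1.18%. The median depth was 5049, 4688 and 5893 UMIs in T cells and 8636, 4955 and 5387 in red cell barcodes.

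**Figure D5:**
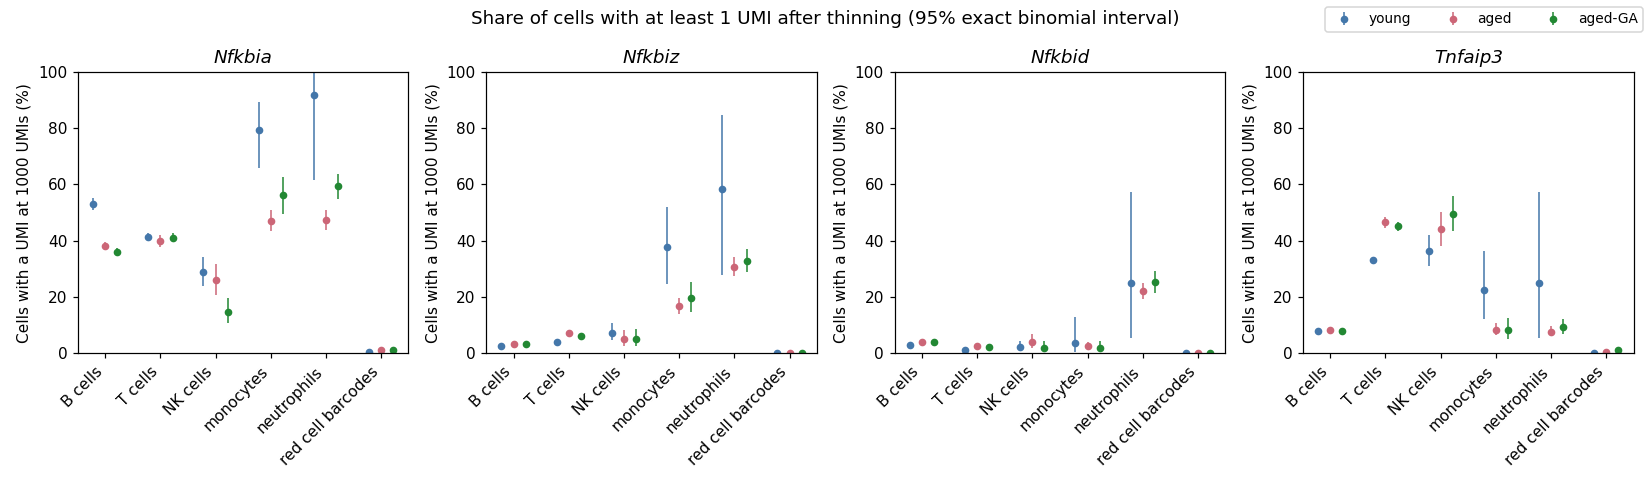
Share of cells (%) with at least 1 UMI of Nfkbia, Nfkbiz, Nfkbid and Tnfaip3 after thinning to 1000 UMIs, by class and library, with red cell barcodes at the right. Points are 1 library each and bars are 95% exact binomial intervals. Young monocytes and neutrophils have the highest shares of Nfkbia, and T and NK cells have higher shares of Tnfaip3 than B cells.

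The wider pathway was read from lists chosen with earlier results known. Among 15 kinases and adaptors, 10 were higher in aged than in young T cells by more than 1.5-fold and none lower. Of all genes, 29.6% were higher by that fold. The median log2 ratio was 0.65 against 0.36 for all genes, the same direction as the subunits. Among the largest were Malt1 (1.07), which carries the antigen receptor signal to the IkappaB kinase, Traf3 (1.06), which restrains the alternative pathway, and Ripk1 (1.01), an adaptor of the tumour necrosis factor receptor. In B cells 6 of 15 were higher and none lower, led by Ripk1 (0.84) and Traf3 (0.82), where 22.5% of all genes were higher. In monocytes 3 of 12 tested were lower and none higher, where 11.4% of all genes were lower. Within nonclassical monocytes it was 1 of 10 lower and 2 higher, where 5.59% of all genes were lower and 15.5% higher. Of the receptors, Tnfrsf1b, for a tumour necrosis factor receptor, was higher in aged T (2.05) and B cells (1.03), while Tnf, for the ligand itself, was lower in aged T cells (-1.17). None of the other inhibitors with enough UMIs passed the fold in B, T or NK cells, monocytes or neutrophils in either comparison. The 7 on this list include the IkappaB genes Nfkbib and Nfkbie and the deubiquitinases Cyld and Otulin. In NK cells 2 of the 7 were tested in each comparison. In neutrophils 1 was tested in aged over young and 3 in aged-GA over aged. Nfkbib and Nfkbie were tested in neither NK cells nor neutrophils. Tnip1 of this list came close in aged over young B (0.58) and T cells (0.57). Within subsets, aged over young, some of the 7 were higher past the fold and none lower. In nonclassical monocytes it was 1 of 4 tested, Tnip1 (1.00), where 15.5% of all genes were. Memory CD8 T cells had 2 of 3, Tnip1 (0.91) and Cyld (0.76), where 26.1% were. Regulatory T cells had 1 of 3, Tnip1 (0.75), where 24.7% were, and CD8 T cells 1 of 5, Otulin (0.72), where 25.8% were.

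Target genes of NF-kappaB were read next, and in aged monocytes 6 of 10 tested were lower by more than 1.5-fold and 2 were higher, with a median of -1.12, where 11.4% of all genes were lower. Within nonclassical monocytes it was 4 of 7 lower and 1 higher, with a median of -0.72, where 5.59% of all genes were lower. The lower ones were led by Cd83 (-2.35), a surface protein of activated antigen-presenting cells, Gadd45b (-2.29), a stress-induced regulator of apoptosis, and the neutrophil chemokine Cxcl2 (-2.15). Within nonclassical monocytes these had -1.41, -1.93 and -1.65. The 2 higher ones over all monocytes were Ccl4 (5.24), with 172 aged and 0 young UMIs, and Ccl3 (2.01), with 314 and 4. Ccl3 had 1.70 within nonclassical monocytes. In B cells 4 of 10 were higher, Il1b, Cxcl2, Ccl3 and Ccl4, and 2 lower, where 22.5% of all genes were higher. In T cells 6 of 10 were higher and 1 was lower, where 29.6% of all genes were higher, and the largest were Il1b (3.46), Ccl3 (3.31), Ccl4 (3.11) and Cxcl2 (2.38), the same 4 genes, several of which are known as genes of myeloid cells. Within naive T cells it was 2 of 7 higher and 1 lower, with a median of -0.0003 against 0.27 for all genes. Within memory T cells it was 1 of 5 higher and 1 lower, with 0.08 against 0.25. Of the 4 genes only Ccl4 had enough UMIs there, with 3.07 in naive and 1.80 in memory T cells. Neutrophil markers summed to 2.74, 39.4 and 24.3 CPM in the B cells of the young, aged and aged-GA libraries and, in T cells, to 1.70, 31.4 and 16.8 CPM in young, aged and aged-GA mice. The part of free RNA in these 4 genes, in either class, and that of the mix of T cell subsets were not tested. With GA, 3 of 9 targets tested were higher in neutrophils and none lower, where 4.35% of all genes were higher. These were Ccl3 (0.99), Ccl4 (0.66) and Ier3 (0.65), beside Nfkbia. In T cells Ccl3 (-1.11) and Ccl4 (-1.10) were lower in aged-GA than in aged mice, as they were in B cells.

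Over 20 sums of a class and a library, the gene most like each member was found among 7343 genes by Pearson's r of log2(CPM + 1). The sums share libraries and depth, and the correlations are a description. Nfkbid was most like Csrnp1 (r = 0.97) and Srgn (0.95), Tnfaip3 most like Gm20186 (0.96) and Skap1 (0.95), Bcl3 most like Pdcd2l (0.95) and Rel most like Rubcnl (0.94) and Fam43a (0.93). Nfkb1 was most like Taok3 (0.93), Relb most like Leng1 (0.93), Nfkbiz most like Riok3 (0.93) and Rela most like Poldip3 (0.92). Nfkb2 was the 1 member with another member among its 3 nearest genes, Rel (0.90), after Uvrag (0.91) and Fam43a (0.90). Nfkbia had the weakest likeness, with Rnf19b at 0.81.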

How the data were processed

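Per the file headers the libraries were made with the 10x 3′ chemistry and counted with Cell Ranger 5.0.0, while the methods of the study name another version. The submitters' processing notes give the build mm10. The UMI counts per gene and barcode were deposited by the authors without normalization.

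As in the study, cells had at least 200 genes, no more than 90% of the maximum number of genes and no more than 7.5% mitochondrial UMIs. UMIs were summed per class and library, and CPM left out haemoglobin genes. A ratio was past the fold at 1.5-fold after 1 CPM was added to both levels, and genes under 100 UMIs in the sum of both libraries were left uncalled. Intervals (95%) were exact Poisson for levels, conditional binomial for ratios (from the counts, with nothing added) and exact binomial for shares. Shares were read after thinning to 1000 UMIs with a fixed seed. Scrublet scores gave 4.65% to 6.16% of barcodes as doublets, which were left out only as an alternative. No test between groups was possible with 1 library each, so no p-values are given.

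The genes, gene lists and marker lists were chosen with earlier results of these data known. Up to 4 genes per list and class past the fold were named, and the 3 genes most like each member. The ratio code was tested on simulated data. Python 3.11.15, numpy 2.4.6, scipy 1.17.1, pandas 2.3.3, scanpy 1.11.5 and matplotlib 3.10.9 were used. Library depth was 58894294 UMIs (young), 82260961 (aged) and 98155671 (aged-GA).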

Additional observations from a re-analysis of the deposited data

Results flagged for a closer look

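Some members lay on opposite sides of 0 in T cells and in myeloid cells in the comparison of aged with young mice, past 1.5-fold on both sides. The difference between classes was not tested, since each group was 1 library. Rel had a log2 ratio, aged over young, of 0.59 in T cells and -0.74 in monocytes. Nfkbid had 0.80 in T cells and -1.33 in monocytes, and in aged mice its level did not lie above red cell barcodes in either class. Nfkbiz had 0.74 in T cells, -1.99 in monocytes and -2.06 in neutrophils. Tnfaip3 had 0.70 in T cells, -1.64 in monocytes and -2.91 in neutrophils, and in aged monocytes and neutrophils its level did not lie above red cell barcodes. In B cells these genes did not pass the fold, with 0.13 for Rel, -0.08 for Nfkbid, 0.01 for Nfkbiz and -0.03 for Tnfaip3. Those with enough UMIs in NK cells did not pass it either. Relative to the median of all genes, none of these T cell ratios stayed past the fold. Rel did not pass it within nonclassical monocytes.

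Barcodes of red cells, which entered no ratio between libraries, held transcripts of Nfkbia at 60.9, 204 and 232 CPM in the young, aged and aged-GA libraries, above the limit that a count of 0 allows.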

How the results depend on the processing

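No paired analysis was possible because each group was 1 library, and for the same reason no replicate could be left out. In all, 15 settings of the ratios were run, 10 planned and 5 chosen after seeing the data. All 25 ratios past 1.5-fold in the 5 classes kept their direction in every setting run, 13 stayed past the fold in each, and 10 did so with at least 100 UMIs in each. In aged over young T cells, the count of 7 became 1 when ratios were taken relative to the median of all genes, 3 without haemoglobin, ribosomal protein and mitochondrial genes in the total, and 4 with a pseudocount of 10 CPM. In B cells the count of 3 became 1 relative to the median. In monocytes the count of 5 became 3 in cells with no UMI of another class's marker, where 4 kept the fold but Nfkbid had under 100 UMIs. In neutrophils 5 became 3 in cells with no more than 1% haemoglobin, where all 5 kept the fold, 3 of them (Rela, Tnfaip3 and Bcl3) under 100 UMIs, and Rel passed it. In aged-GA over aged T cells, the count of 0 became 1 with the reduced total, relative to the median, with equal weight per cell, without markers of another class, with up to 20% mitochondrial UMIs and with cells placed by their leading class. In monocytes 1 became 0 with a pseudocount of 10 CPM, in nonclassical cells alone and without markers of another class, the last because Relb, still past the fold, had under 100 UMIs. In neutrophils 3 became 5 with no more than 1% haemoglobin. The cause of the other changes was not tested. The 12 young neutrophils and 54 young monocytes limit the precision of the myeloid ratios.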
